A study of Mus musculus with 23 samples.

Results

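Celastrol was compared with its vehicle 1 day after the start of dosing in the hypothalamus of db/db mice, over all genes that a single-gene probe set names. The members were taken by their sample titles: 4 celastrol arrays and 4 vehicle arrays of 1 day, 8 of the 23 arrays in the series, and 18702 genes. Total RNA of the hypothalamus was labelled for a whole-transcript Affymetrix array, with an array for each biological replicate, as the labels call them. Every mouse in both groups was a male db/db animal of 8 weeks, had eaten normal chow for 2 weeks, and was injected intraperitoneally. Controls received DMSO at 25 µl per day, and the treated mice received celastrol; no source used here gives the celastrol dose of the 1-day group. The other groups used below were vehicle mice of 6 h and of 4 days (4 arrays each), and celastrol mice of 6 h (3 arrays) and of 4 days (4 arrays). There was no lean or leptin-competent control among the samples analysed here, so each value is a contrast within obese, leptin-receptor-deficient animals.

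Celastrol is a triterpenoid quinone methide from thunder god vine that lowers food intake and body weight in diet-induced obese mice. The db/db mutation removes the long, signalling form of the leptin receptor, which in hypothalamic neurons acts through JAK2 and STAT3. Cytokines of the interleukin-6 family use the same STAT3 arm to switch on acute-phase genes such as Lcn2, and interleukin-1 and tumour necrosis factor act through NF-kB. Each value is the log2 level of a probe set, normalised by the authors with RMA, so a difference of 1 is a doubling. Levels of different genes are compared only roughly, to group genes by mean level and to call them weakly or well expressed.

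The samples carried the defining genes of the hypothalamus. The orexin gene Hcrt lay between 12.73 and 13.10 over the 8 arrays, the paraventricular transcription factor gene Sim1 between 9.52 and 9.63, and Nr5a1, which marks the ventromedial nucleus, between 8.49 and 8.74. Tissue of the adjoining pituitary was uneven: vehicle replicate 1 had Prl at 9.24 where the other 7 arrays lay between 5.88 and 7.31. The 1-day vehicle arrays also stood apart from the 8 vehicle arrays of 6 h and 4 days, with 76 genes higher (0.406% of those tested) and 397 lower (2.12%; limma, adjusted p under 0.05). That count of 473 was 309, 60, 182 and 17 without vehicle replicate 1, 2, 3 and 4 of 1 day, and 0 with each array's SD over genes as a covariate. Within the 1-day comparison, log2 values spread a little less over genes in the celastrol arrays (SD 1.905 to 1.932) than in the vehicle arrays (1.933 to 1.962). Both facts touch most results below, so values against the other vehicle arrays are given beside them. In RNA from whole tissue, fewer cells of a type and less RNA per cell cannot be told apart.

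Lcn2, Scgb3a1 and Galnt15 rose with celastrol at 1 day, and no gene fell, at an adjusted p under 0.05 (limma, Benjamini-Hochberg over 18702 genes; 0.016% of genes called higher and 0% lower). At an unadjusted p under 0.05, 1555 genes were higher (8.31%) and 783 lower (4.19%), the latter count being 470 without vehicle replicate 4. With limma's array weights, which let the spread differ between arrays, 290 genes passed as higher and 116 as lower. Without celastrol replicate 3, 6 genes passed as higher and 1 as lower, and 0 passed as higher without celastrol replicate 2 or 4 or vehicle replicate 2, 3 or 4. The number of arrays limits what could be called: the 95% confidence interval of a difference reached 0.136 to either side for the median gene.

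Lcn2 encodes lipocalin 2, a secreted siderophore-binding protein of the acute phase. In replicates 1 to 4 its log2 level was 7.45, 7.77, 7.34 and 8.78 with celastrol and 6.46, 6.47, 6.50 and 6.47 with vehicle. The groups did not overlap, celastrol replicate 4 stood more than 1 unit above the rest of its group, and the vehicle arrays were nearly identical. The 8 vehicle arrays of the other times ran from 6.86 to 7.62, all above the 1-day vehicle arrays, and celastrol replicates 1 and 3 lay inside that range. The difference was 1.36 (95% confidence interval 0.89 to 1.83; limma, adjusted p = 0.0413), and against all 12 vehicle arrays it was 0.89 and no longer passed (adjusted p = 0.300). The call was also lost without celastrol replicate 2 (adjusted p = 0.0767) or 4 (0.0999), or without any of the 4 vehicle replicates (0.0797 to 0.178).

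Scgb3a1 encodes a small secretoglobin made mainly by airway and other secretory epithelia. Its level was 8.31, 9.33, 8.75 and 9.20 with celastrol and 8.00, 7.72, 7.82 and 7.87 with vehicle. All 4 celastrol arrays were also above the vehicle arrays of the other times, which ran from 7.76 to 8.17. The difference was 1.04 (interval 0.71 to 1.37; limma, adjusted p = 0.0205) and 0.98 against all 12 vehicle arrays (adjusted p = 0.000779). The call was lost without celastrol replicate 2 (difference 0.90, adjusted p = 0.0748) or 4 (0.0999), and without vehicle replicate 2 (0.162), 3 (0.0812) or 4 (0.0968).

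Of the 10 secretoglobin genes measured, Scgb3a1 was the member called, and 1 other had an unadjusted p under 0.05. This was Scgb1c1, a secretoglobin of the nasal mucosa, at 6.37, 8.48, 6.32 and 6.27 with celastrol and between 6.22 and 6.29 with vehicle. Its high value came from celastrol replicate 2 alone, the array in which Scgb3a1 was highest. Cyp2g1, a cytochrome P450 of olfactory mucosa looked up after its values were seen, was 8.52 in that array and 6.01 to 6.77 in the other 7. The olfactory marker protein gene Omp, looked up in the same way, was 8.38 in that array and 7.95 to 8.11 in the others. Of 10 mucosa genes looked up, 4 were highest in celastrol replicate 2 (Cyp2g1, Scgb1c1, Omp and Muc5b, at 7.49) and 4 in vehicle replicate 1. Cyp2f2, another airway cytochrome P450, was 8.41 in celastrol replicate 2 but 9.03 and 8.80 in vehicle replicates 1 and 4, while Scgb1a1 (4.58 to 4.86) and Scgb3a2 (5.83 to 6.07) were low in all 8 arrays. In celastrol replicate 4 Scgb3a1 was at 9.20, and Scgb1c1, Cyp2g1 and Omp were at 6.27, 6.77 and 8.03. That Cyp2g1 value was above the 1-day vehicle arrays (at most 6.43) and the other vehicle arrays (at most 6.55). Cyp2g1 ranked the 4 celastrol arrays in the same order as Scgb3a1, while Scgb1c1 and Omp did not. An order of 4 arrays, picked out after the values of 10 genes were seen, cannot tell whether 2 genes vary together. The part of such tissue in the Scgb3a1 difference was not tested beyond leaving out replicate 2.

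Galnt15 belongs to the polypeptide GalNAc transferases, the enzymes that attach the first sugar of mucin-type O-glycans. Its level was 8.18, 7.98, 8.02 and 8.22 with celastrol and 7.77, 7.66, 7.80 and 7.70 with vehicle. The groups did not overlap, with a gap narrower than the range of the celastrol arrays, and vehicle arrays of the other times (7.79 to 8.08) lay mostly among the celastrol values. The difference of 0.37 (interval 0.23 to 0.50; limma, adjusted p = 0.0482) was 0.19 against all 12 vehicle arrays (adjusted p = 0.629). Galnt15 was also among the genes that were lower in the 1-day vehicle arrays than in the other vehicle arrays (-0.26, limma, adjusted p = 0.0203). Its call was lost without any single array of the 8 other than celastrol replicate 3 (adjusted p 0.0748 to 0.252). Of the 19 measured enzymes of the family, 7 had higher means with celastrol, their median difference was -0.02, and Galnt15 was the member whose groups did not overlap.

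**Figure D1:**
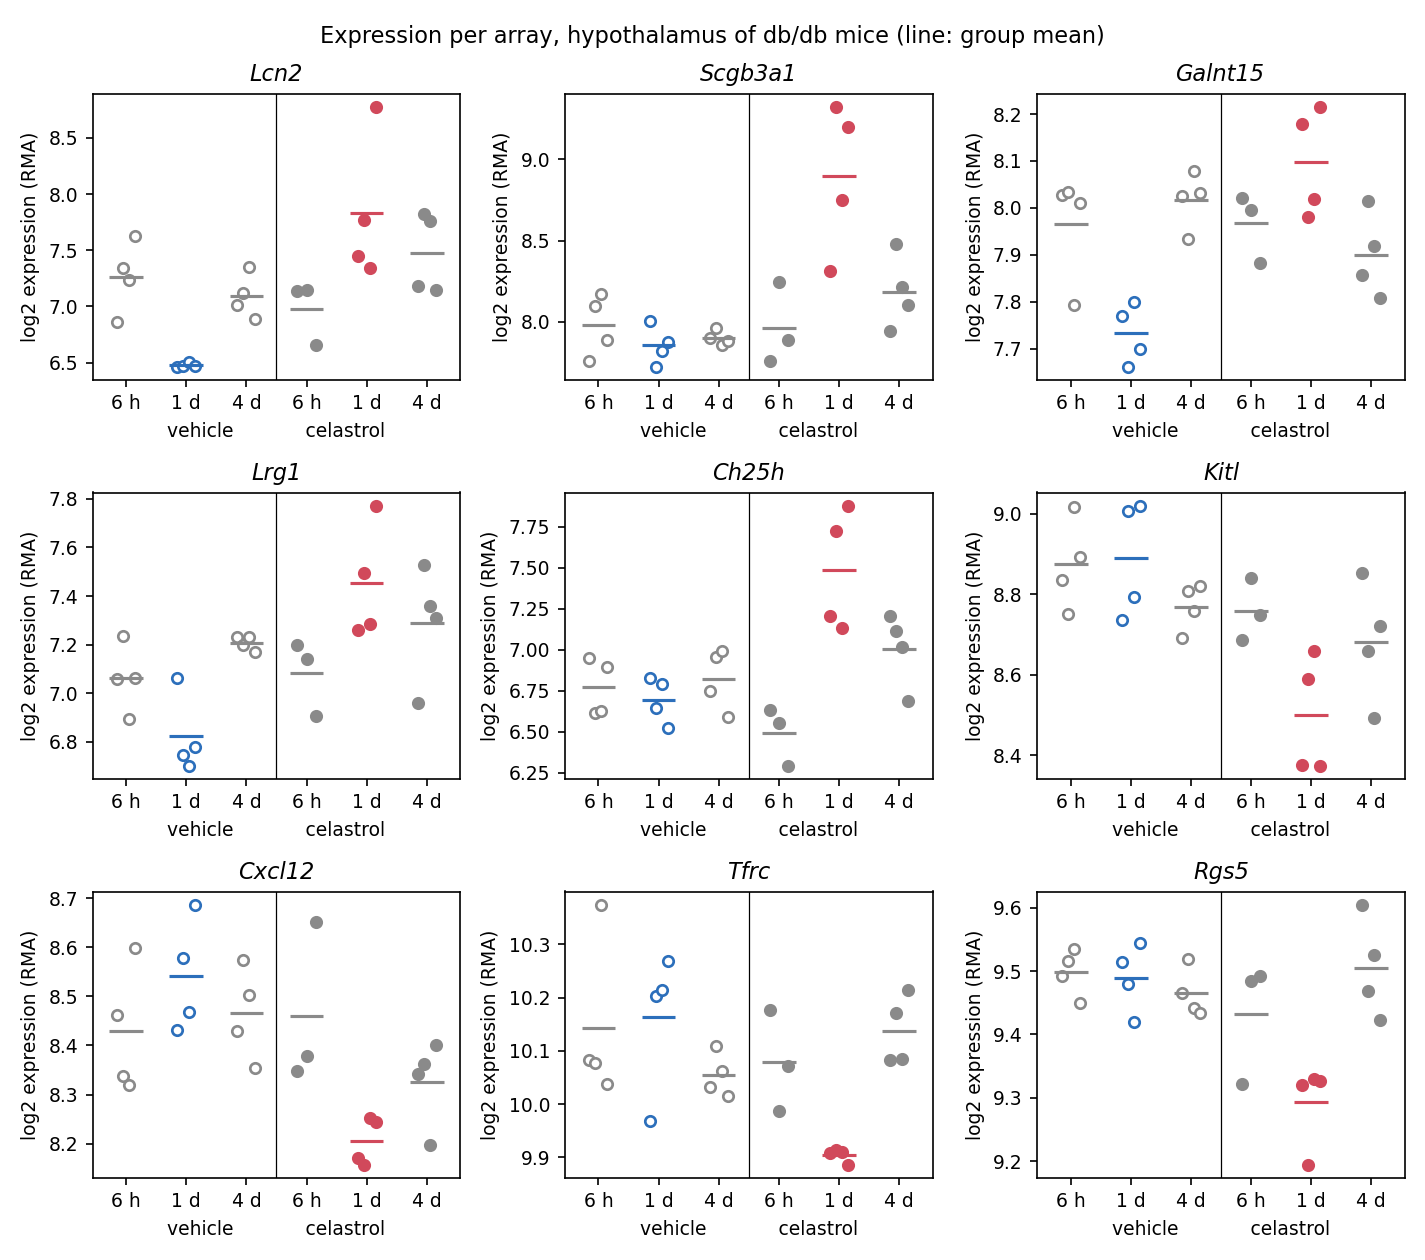
Log2 expression of 9 genes (vertical axis, a scale for each gene) in each of the 23 arrays, grouped along the horizontal axis by treatment and time. Open points are vehicle and filled points celastrol, with the 1-day groups in colour and a line at each group mean. The 4 vehicle arrays of 1 day lie below all other arrays for Lcn2, while Kitl, Cxcl12, Tfrc and Rgs5 have their 1-day celastrol arrays below all 12 vehicle arrays.

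The promoters of the called genes, and of Ch25h, which passed when all vehicle arrays served as the control, are shown because acute-phase and NF-kB genes are controlled by short sites close to the start. Each is the 250 bases before the start in RefSeq (GRCm38.p6), 5′ to 3′ in the direction of transcription. Lcn2 is chr2:32387740-32387989 on the minus strand, Scgb3a1 chr11:49663345-49663594 on the plus strand, Galnt15 chr14:32028853-32029102 on the plus strand and Ch25h chr19:34475149-34475398 on the minus strand. Capitals mark matches, on either strand, to STAT (TTCNNNGAA), C/EBP (TTGCNNAA), glucocorticoid (ACANNNTGT), heat shock (GAANNTTC) and NF-kB motifs.
Lcn2: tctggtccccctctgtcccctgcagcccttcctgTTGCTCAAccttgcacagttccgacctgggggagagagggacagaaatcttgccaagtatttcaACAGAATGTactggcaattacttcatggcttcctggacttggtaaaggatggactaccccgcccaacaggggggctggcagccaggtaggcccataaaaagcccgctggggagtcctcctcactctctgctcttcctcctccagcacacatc
Scgb3a1: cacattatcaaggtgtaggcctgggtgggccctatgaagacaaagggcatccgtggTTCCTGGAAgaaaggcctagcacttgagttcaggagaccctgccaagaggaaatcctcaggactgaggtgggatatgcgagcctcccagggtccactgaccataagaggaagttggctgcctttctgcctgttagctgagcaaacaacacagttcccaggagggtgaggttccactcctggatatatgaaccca
Galnt15: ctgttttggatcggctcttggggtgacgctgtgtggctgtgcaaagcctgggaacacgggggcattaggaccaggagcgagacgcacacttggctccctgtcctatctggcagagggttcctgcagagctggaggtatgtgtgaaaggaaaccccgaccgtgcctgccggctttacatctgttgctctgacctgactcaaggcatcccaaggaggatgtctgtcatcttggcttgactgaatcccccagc
Ch25h: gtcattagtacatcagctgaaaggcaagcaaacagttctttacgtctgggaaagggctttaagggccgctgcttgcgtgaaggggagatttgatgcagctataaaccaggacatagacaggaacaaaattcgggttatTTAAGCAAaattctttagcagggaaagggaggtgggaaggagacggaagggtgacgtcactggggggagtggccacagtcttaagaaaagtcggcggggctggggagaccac
Lcn2 held a C/EBP match 216 bases before the start and a glucocorticoid match 152 bases before it, Scgb3a1 a STAT match 194 bases before it and Ch25h a C/EBP match on the other strand 112 bases before it. The letters searched for do not occur in the Galnt15 window. Such matches are common and are given as a description: among the 14917 genes tested that have a promoter in the table, 8.71% held the C/EBP motif, 6.68% the STAT motif, 4.97% the glucocorticoid motif, 7.86% the NF-kB motif and 5.80% the heat shock motif. Among 953 genes whose 4 celastrol arrays were higher without overlap the shares were 9.55%, 7.24%, 5.77%, 8.92% and 4.93% in the same order, and among 698 genes whose celastrol arrays were lower without overlap they were 6.30%, 4.30%, 2.87%, 8.74% and 4.30%.

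Ch25h and Lrg1 followed the called genes in rank. Ch25h, which makes the antiviral oxysterol 25-hydroxycholesterol, was 7.21, 7.73, 7.13 and 7.88 with celastrol and 6.83, 6.65, 6.79 and 6.52 with vehicle. The other vehicle arrays reached at most 6.99, below every celastrol array, and against all 12 vehicle arrays the difference was 0.72 (limma, adjusted p = 0.0161). Lrg1, an acute-phase glycoprotein that modulates TGF-beta signalling in endothelium, was 7.26, 7.49, 7.28 and 7.77 with celastrol and 7.06, 6.74, 6.70 and 6.78 with vehicle. Its lowest celastrol array was just above the highest of the other vehicle arrays, 7.23, and its difference against all 12 was 0.42 (limma, adjusted p = 0.322). For all 5 genes the celastrol difference was smaller at 6 h and at 4 days, between -0.29 and 0.02 at 6 h and between -0.12 and 0.38 at 4 days. The test of the 1-day effect against those of the other times passed for none of the 18702 genes (0% called; limma, adjusted p = 0.221 for Lcn2, Scgb3a1, Galnt15 and Ch25h). At an unadjusted p under 0.05 that test had 763 genes in favour of a higher 1-day effect (4.08%) and 349 of a lower one (1.87%).

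The remaining genes of smallest p with higher values were mostly weakly expressed. They included the epidermal keratin gene Krt5 (0.34), the liver-type secreted proteins Fgl1 (0.39) and Ambp (0.38), the peroxisomal bile acid enzyme Acox2 (0.30), the thiazide-sensitive cotransporter Slc12a3 (0.31) and the kinetochore gene Ska3 (0.27), each with an adjusted p of 0.0737 (limma). Krt5 was 6.97, 7.12, 6.99 and 6.99 with celastrol and 6.68, 6.59, 6.69 and 6.76 with vehicle. Fgl1 was 6.62, 6.69, 6.79 and 6.71 against 6.27, 6.39, 6.40 and 6.21. Both groups were tight and apart, but the vehicle arrays of the other times ran up to 7.02 for Krt5 and 6.85 for Fgl1, into or past the celastrol values. Fam166a was the gene of this tier that stayed clear of all vehicle arrays, at 6.77 to 6.89 with celastrol against at most 6.76.

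Level and direction went together over the whole genome. Every celastrol array exceeded each vehicle array for 1205 genes (6.44%) and was below each for 852 (4.56%). Leaving out celastrol replicate 3 made these counts 1987 and 1347, and leaving out vehicle replicate 1 made them 1790 and 1646, with fewer arrays to overlap. Genes were put in 3 bands of 6234 by mean level over the 23 arrays. In the low band, 10.2% were non-overlapping and higher and 0.786% lower, in the middle band 7.11% and 4.91%, and in the high band 2.02% and 7.97%. At an unadjusted p under 0.05, 14.9%, 8.74% and 1.28% were higher and 1.07%, 5.71% and 5.77% were lower in the low, middle and high bands. The median difference was 0.07, 0.0027 and -0.02 in these bands, against 0.0086 over all genes. Means were higher with celastrol for 76.2%, 51.5% and 34.6% of genes in these bands, against 54.1% of all genes. These shares are the background of the counts of higher and lower list members below. Olfactory, vomeronasal and taste receptor genes, 1232 in all and mostly silent in brain, had a median of 0.04 with 833 higher. The 1-day vehicle arrays showed the reverse against the other vehicle arrays, with medians of -0.08, -0.02 and 0.02 over the bands. The 2 contrasts share those 4 arrays and are not independent. Against all 12 vehicle arrays the celastrol medians were 0.0153, -0.0094 and -0.0063 in the low, middle and high bands. On that basis 29 genes had every celastrol array above (0.155%) and 36 had every one below (0.192%).

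**Figure D2:**
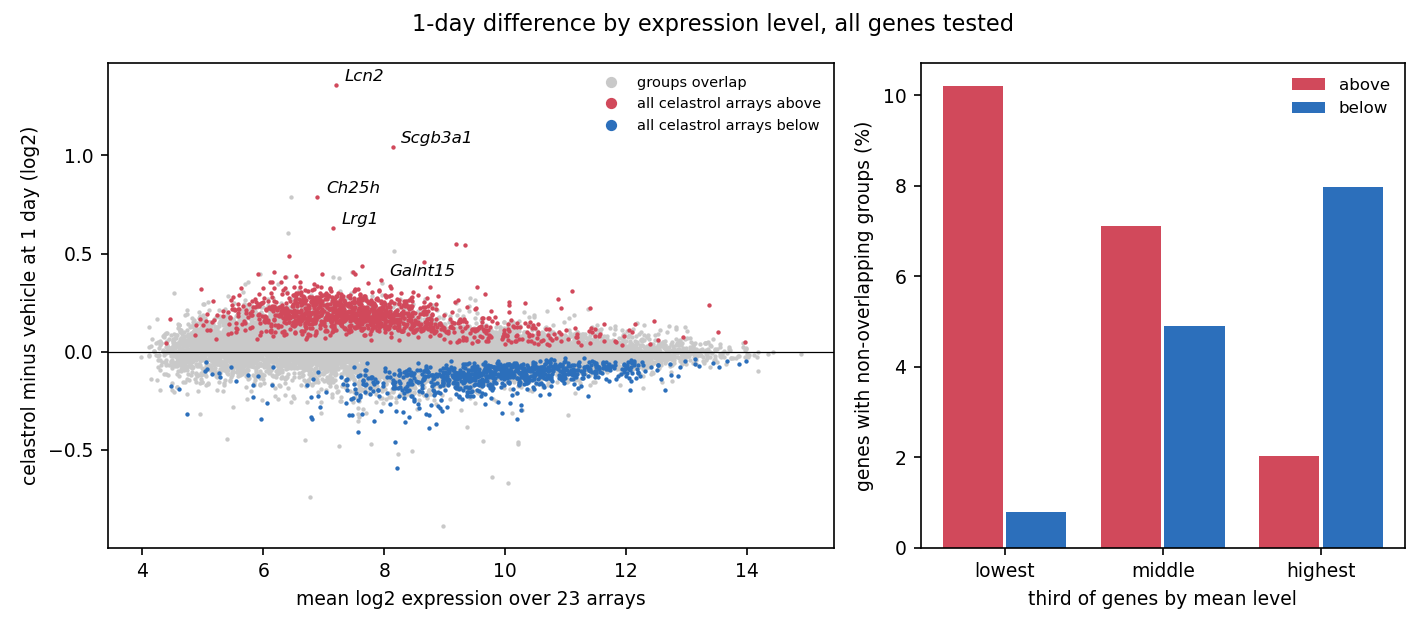
Left, the log2 difference of each of 18702 genes between the 1-day groups (vertical axis) against its mean level over 23 arrays (horizontal axis), with colour where the 4 celastrol and 4 vehicle arrays do not overlap. Right, the percentage of such genes in each band by level; it goes from 10.2% above and 0.786% below in the low band to 2.02% above and 7.97% below in the high band.

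NF-kB target genes had higher values as a set, with 18 of 22 measured members higher and a median difference of 0.16 against 0.0086 over all genes. None passed over all genes. At an unadjusted p under 0.05, 10 had higher values and 1 lower ones (8.31% and 4.19% of all genes). In 7 the groups did not overlap, all higher. That share was 6.44% of all genes, 10.2% of the low band and 7.11% of the middle band. The list sits low on the scale, with 11 members in the low band and 10 in the middle band, where 14.9% and 8.74% of genes had an unadjusted p under 0.05 and higher values. Nfkbia, the NF-kB inhibitor that NF-kB itself induces, was 9.80, 9.60, 9.56 and 9.87 with celastrol and 9.42, 9.38, 9.31 and 9.39 with vehicle. Every celastrol array was above every vehicle array of 1 day, though the other vehicle arrays ran from 9.36 to 9.76 and covered 2 of them. The precursor subunit gene Nfkb2 was 8.12, 8.12, 7.99 and 8.12 against 7.89, 7.96, 7.85 and 7.80. Ptgs2, cyclooxygenase 2 of fever and pain signalling, was 8.03, 7.99, 7.82 and 8.30 against 7.67, 7.71, 7.58 and 7.78, and with Ch25h was a member above all 12 vehicle arrays. The deubiquitinase gene Tnfaip3, another NF-kB feedback inhibitor, differed by -0.12 in the other direction. Against all 12 vehicle arrays the list's median was 0.08, and the 1-day vehicle arrays differed from the other vehicle arrays by -0.10 at the median.

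Il1b, the interleukin-1 beta gene, was 6.49, 6.82, 6.44 and 6.69 with celastrol and 6.04, 6.30, 6.49 and 6.34 with vehicle, so its groups overlapped at vehicle replicate 3. Its vehicle values at the other times ran from 6.41 to 6.71, and the difference against all 12 was 0.12 (limma, adjusted p = 0.934). The 15 interleukin-1 family genes had a median of 0.06. The adaptor Myd88 (0.12) was the member non-overlapping and higher (6.44% of all genes). Among 29 chemokines and their receptors, 24 had higher values with a median of 0.06. Of the 29, 20 lie in the low band, where 76.2% of genes had higher means. Ccl22, a T-cell attracting chemokine, was the member non-overlapping and higher (0.24), and Cxcl12 the member non-overlapping and lower. Over all genes these shares were 6.44% and 4.56%. Interferon response and antigen presentation genes had a median of 0.01, with 0 of 23 non-overlapping (6.44% of all genes higher and 4.56% lower).

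Acute-phase and STAT3 target genes were higher in 22 of 25 cases, with a median of 0.11; 11 had an unadjusted p under 0.05, all higher (8.31% of all genes), and 7 were non-overlapping and higher (6.44% of all genes). Of the 25, 11 lie in the low band and 10 in the middle band, where 14.9% and 8.74% of genes had an unadjusted p under 0.05 and higher values. Besides Lcn2 and Lrg1 the non-overlapping members were the interleukin-4 receptor gene Il4ra (0.22), the kinase gene Pim3 (0.17), the plasma proteins Orm2 (0.26) and Hpx (0.24) and the interleukin-6 receptor gene Il6ra (0.20). Osmr, the oncostatin M receptor, was 8.74, 8.66, 8.25 and 8.75 with celastrol and 8.25, 8.04, 7.98 and 8.08 with vehicle, the groups meeting at 8.25. The shared signal transducer Il6st went the other way (-0.09), with all celastrol arrays below. Lif, an interleukin-6 family ligand outside this list, was 6.78, 6.88, 6.67 and 6.83 against 6.47, 6.49, 6.55 and 6.57. Its groups were apart, while the other vehicle arrays ran from 6.47 to 6.94. The 24 cytokine receptors and signal inhibitors had a median of 0.03. Among them, Il10rb (-0.28) and the interferon receptor gene Ifnar1 (-0.15) were non-overlapping and lower (4.56% of all genes). Socs1 (0.15), Clcf1 (0.16) and Lif (0.27) were non-overlapping and higher (6.44% of all genes).

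Glucocorticoid response genes had the highest median of the 43 lists, 0.17, with 21 of 24 higher, 10 with an unadjusted p under 0.05 and higher values, and 1 with lower ones, against 8.31% and 4.19% of all genes. Of the 24, 2 lie in the low band, 12 in the middle band and 10 in the high band, where 14.9%, 8.74% and 1.28% of genes had an unadjusted p under 0.05 and higher values. Plin4, a lipid droplet coat protein, was 9.23, 9.22, 8.94 and 9.37 with celastrol and 8.95, 8.64, 8.57 and 8.88 with vehicle. The groups met near 8.94, between celastrol replicate 3 and vehicle replicate 1. Tmem252 was 6.95, 6.63, 6.35 and 7.01 against 6.32, 6.03, 6.33 and 6.32, with the groups just apart, and the mTORC1 inhibitor gene Ddit4 was 9.65 to 9.71 against 9.46 to 9.59. Dusp1, a phosphatase that both glucocorticoid and neuronal activity induce, differed by -0.17. The list shares Lcn2, Nfkbia, Il4ra and Bcl6 with the inflammatory lists. Against all 12 vehicle arrays its median was 0.10.

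Blood leukocyte markers leaned the same way as these lists: 13 of 15 had higher values, with a median of 0.07. That median is close to that of the low band, where 14 of them lie and 76.2% of genes had higher means. S100a8, a neutrophil calgranulin, was 6.19, 6.43, 6.14 and 6.38 with celastrol and 6.17, 5.95, 5.94 and 5.99 with vehicle. Cd8a, of cytotoxic T cells, was 7.21 to 7.36 against 6.92 to 7.13. The 21 microglia and macrophage markers had a median of 0.00089. At an unadjusted p under 0.05, Csf1r (-0.12) and P2ry12 (-0.15) were lower and Trem2 (0.15) higher, against 4.19% and 8.31% of all genes. The part of blood cells in the inflammatory lists was not tested.

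Several genes of blood vessels had lower values, and Kitl and Cxcl12 had the smallest p of all genes on the low side. Kitl, the ligand of Kit that endothelial cells and neurons make, was 8.38, 8.59, 8.66 and 8.37 with celastrol and 8.73, 9.01, 8.79 and 9.02 with vehicle. Cxcl12, a chemokine of endothelium and stroma, was 8.17, 8.16, 8.25 and 8.24 against 8.43, 8.58, 8.47 and 8.69. For both, every celastrol array was below all 12 vehicle arrays, whose lowest values were 8.69 and 8.32. Neither passed (limma, adjusted p = 0.0872 and 0.101), and against all 12 vehicle arrays the differences were -0.34 and -0.27.

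Of 18 brain endothelial markers, 13 had lower values and the median was -0.09; 7 had an unadjusted p under 0.05 and lower values and 2 higher ones. Of the 18, 10 lie in the middle band and 8 in the high band, where 5.71% and 5.77% of genes had an unadjusted p under 0.05 and lower values. The angiopoietin receptor genes Tie1 and Tek, the VEGF receptor gene Kdr, the sialomucin gene Emcn and the cadherin gene Cdh5 had differences of -0.18, -0.24, -0.29, -0.27 and -0.15. Tie1 was 8.24, 8.22, 8.20 and 8.20 with celastrol and 8.38, 8.50, 8.37 and 8.35 with vehicle, 2 tight groups that did not overlap. Emcn was 9.55, 9.57, 9.59 and 9.31 against 9.64, 9.87, 9.73 and 9.86. Slc2a1, the glucose transporter of the blood-brain barrier, and Vwf, von Willebrand factor, went the other way. Slc2a1 was 12.58, 12.53, 12.49 and 12.67 against 12.43, 12.39, 12.37 and 12.44, and Vwf 8.72, 8.94, 8.89 and 8.84 against 8.54, 8.67, 8.63 and 8.63. Pecam1, a general endothelial marker, lay between the sets, with a difference of 0.02.

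Pericyte and smooth muscle markers had a median of -0.07. Rgs5, a G-protein regulator that marks pericytes, was 9.32, 9.19, 9.33 and 9.33 with celastrol and 9.52, 9.48, 9.42 and 9.54 with vehicle, below all 12 vehicle arrays. The contractile genes Cnn1 (0.22) and Des (0.17) had higher values. The medians of the endothelial and pericyte lists were no smaller when the other vehicle arrays were added: they were -0.11 and -0.11 against all 12, and the 1-day vehicle arrays differed from the other vehicle arrays by -0.0064 and -0.06 at the median. Angiogenic factors and receptors, 28 genes that overlap the endothelial list, had a median of -0.05 on both bases; 5 were non-overlapping and lower (4.56% of all genes) and 2, Flt4 and Esm1, non-overlapping and higher (6.44%). Further vessel genes with every celastrol array below all 12 vehicle arrays, picked out after their values were seen, were Cd93, a C-type lectin of endothelium (-0.20), the caveolar ATPase gene Ehd2 (-0.21) and the transcription factor gene Ets1 (-0.14). Podxl, an endothelial sialomucin, was above them all (0.30).

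**Figure D3:**
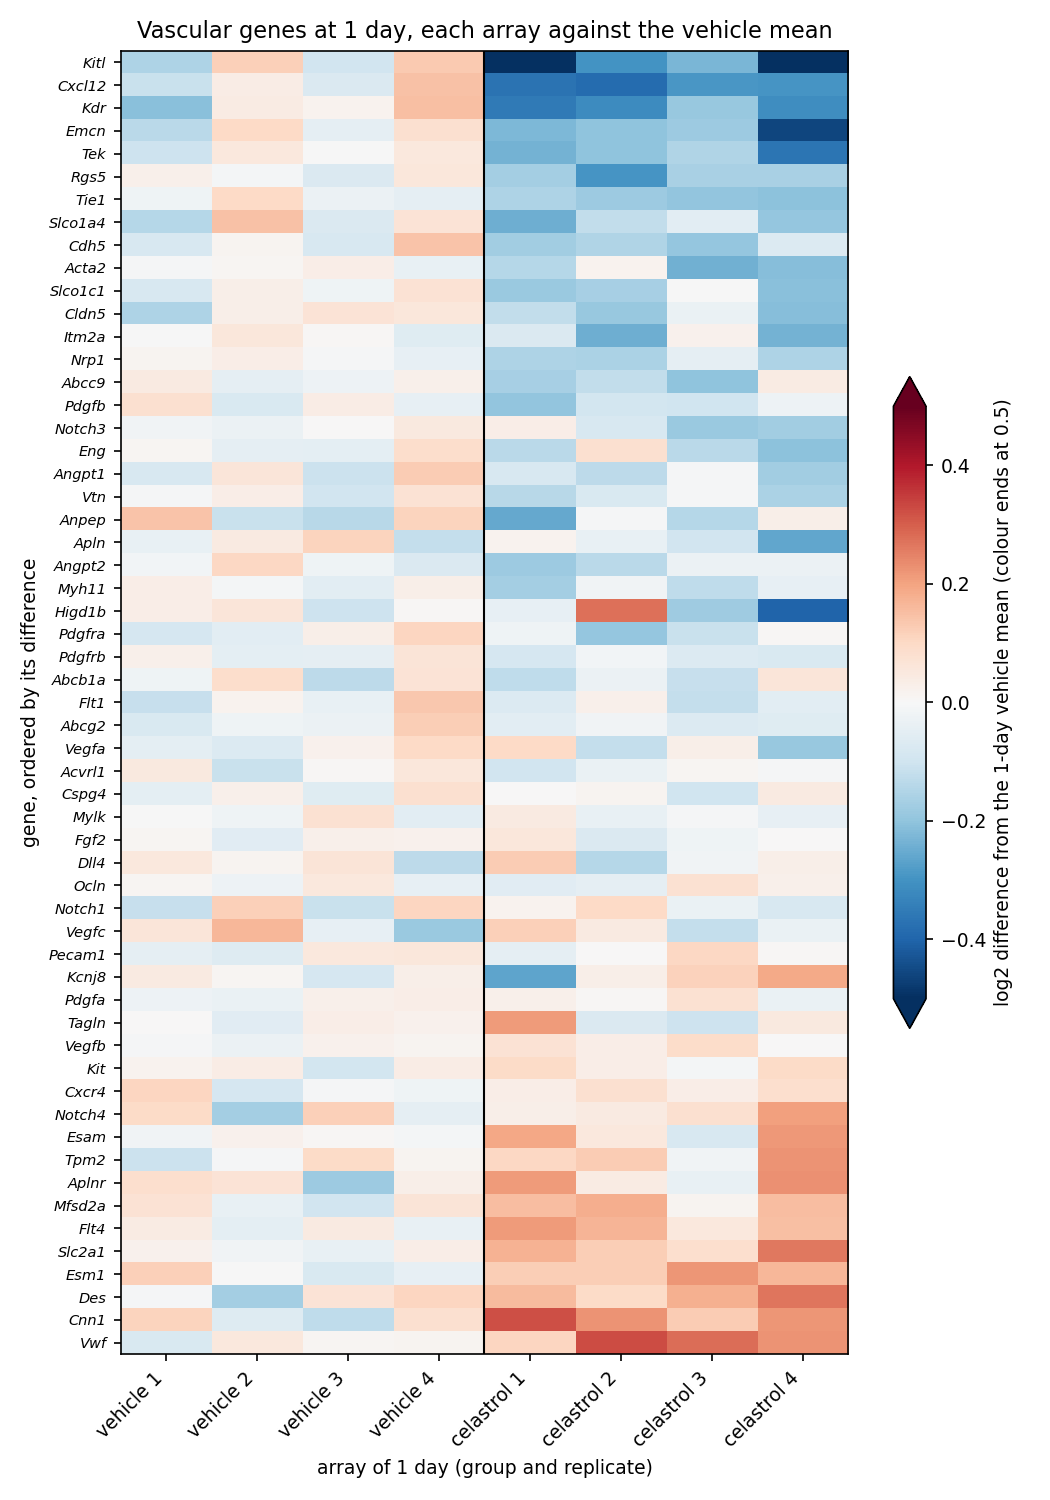
Each row is 1 of the 57 genes of the endothelial, pericyte and angiogenic lists and each column an array of 1 day; colour gives the log2 difference from the mean of the 4 vehicle arrays, ending at 0.5. The celastrol columns are blue for the upper genes, from Kitl to Tie1, and red for the lowest, such as Vwf and Slc2a1. Of the 57 genes, 37 have lower means and 20 higher, with 7 and 5 non-overlapping (4.56% and 6.44% of all genes).

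Iron genes went both ways. Tfrc, the transferrin receptor through which brain endothelium and neurons take up iron, was 9.91, 9.91, 9.91 and 9.89 with celastrol and 9.97, 10.20, 10.22 and 10.27 with vehicle. All 4 celastrol arrays were below each of the other 19 arrays of the series. Slc40a1, the iron exporter ferroportin, was 7.34, 7.31, 7.71 and 7.49 against 7.53, 7.83, 7.79 and 7.95, and the transferrin gene Trf was 12.09 to 12.15 against 12.16 to 12.32. Lcn2, itself an iron-siderophore carrier, was called but is not one of the 18 iron genes counted here. Its uptake receptor Lrp2 differed by 0.10. Over 18 iron genes the median was 0.0019, with 9 higher, 1 of them non-overlapping (6.44% of all genes), and 2 non-overlapping and lower (4.56%). None passed (limma, adjusted p = 0.170 for Tfrc and 0.191 for Slc40a1).

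Sterol and myelin genes had lower values. Of 23 genes of cholesterol and fatty acid synthesis, 21 were lower, with a median of -0.05; 5 were non-overlapping and 6 had an unadjusted p under 0.05, all lower. The list is well expressed, with 20 members in the high band, whose median was -0.02 and where 7.97% of genes were non-overlapping and lower. Lss, lanosterol synthase, was 9.55, 9.48, 9.49 and 9.46 with celastrol and 9.58, 9.67, 9.66 and 9.69 with vehicle, and Hmgcs1, which makes the precursor of mevalonate, was 11.18 to 11.30 against 11.30 to 11.45. Insig1, which holds back the sterol sensor when sterols are plentiful, differed by -0.15. Of 19 oligodendrocyte and myelin genes 18 were lower, with a median of -0.09, and 2 were non-overlapping and lower (4.56% of all genes). The high band, where 34.6% of genes had higher means, holds 15 of the 19. Opalin, a myelin membrane protein, was 9.14, 8.85, 9.39 and 9.03 against 9.30, 9.30, 9.53 and 9.46, so that celastrol replicate 3 reached the vehicle values. Thalamus markers, a sign of adjoining tissue, were lower in 17 of 20 cases (median -0.09), and none at an unadjusted p under 0.05. Of the 20, 3 were non-overlapping and lower (4.56% of all genes), and 11 lie in the high band, where that share was 7.97%.

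Subunits of transmitter receptors shared the low side. Of 21 glutamate receptor subunits, 18 were lower (median -0.05) and 7 were non-overlapping and lower, and of 18 GABA and glycine receptor subunits, 16 were lower (median -0.04) and 5 non-overlapping. Of these subunits, 18 and 16 lie in the high band, where 7.97% of genes were non-overlapping and lower. Grik1, a kainate receptor subunit, was 9.31, 9.28, 9.36 and 9.28 with celastrol and 9.43, 9.51, 9.55 and 9.47 with vehicle, below all 12 vehicle arrays, whose lowest value was 9.36. Grin2b, an NMDA receptor subunit, was at most 11.10 with celastrol and 11.15 to 11.28 with vehicle, and Gabrb2, a subunit of the GABA-A receptor, was 11.85 to 11.87 against 11.94 to 12.04. Neuronal cell markers, also highly expressed, had a median of -0.03 with 1 of 16 non-overlapping. With all vehicle arrays as control the medians of both receptor lists were -0.02 and -0.03. Aqp4, the water channel of astrocyte endfeet, was 10.34, 10.26, 10.24 and 10.21 against 10.45, 10.47, 10.35 and 10.55, while the 16 astrocyte markers had a median of -0.02.

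Transcription factors that pattern hypothalamic nuclei had higher values in 14 of 21 cases, with a median of 0.05, and 5 were non-overlapping and higher, against 6.44% of all genes and 7.11% of the middle band, where 15 of the 21 lie. Hmx3, a homeobox gene of the developing hypothalamus, was 7.84, 7.98, 7.90 and 8.03 with celastrol and 7.77, 7.58, 7.78 and 7.62 with vehicle. Rax, which marks tanycytes of the third ventricle, was 7.54, 7.39, 7.55 and 7.61 against 7.14, 7.24, 7.14 and 7.49, overlapping at vehicle replicate 4. Foxb1 (0.18), Nkx2-4 (0.16), Vax1 (0.15) and Nr5a1 (0.12) were the other non-overlapping members. The other vehicle arrays ran from 7.73 to 8.02 for Hmx3, across most of the celastrol values, and the median against all 12 was 0.04. Tanycyte and ependymal markers had a median of 0.07, which became 0.0087 against all 12.

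Of 23 feeding peptides and their receptors, 16 had higher values, with a median of 0.06; 0 had an unadjusted p under 0.05 and 1 was non-overlapping and higher (6.44% of all genes). This was the neuropeptide Y receptor gene Npy5r, at 7.73, 7.58, 7.62 and 7.62 with celastrol and 7.43, 7.57, 7.47 and 7.56 with vehicle. Npy, the orexigenic peptide of arcuate neurons, differed by 0.13 (interval -0.10 to 0.37) and by -0.02 against all 12 vehicle arrays. Pomc, the melanocortin precursor that pituitary cells also make, differed by 0.27 with an interval from -0.72 to 1.25, and by -0.37 against all 12; celastrol replicate 2 stood at 9.09. Cartpt differed by 0.10 (interval -0.05 to 0.25). Among other peptides, Qrfp, of lateral hypothalamic neurons, was 8.43, 8.44, 8.34 and 8.60 with celastrol and 8.28, 8.23, 8.22 and 8.15 with vehicle. Kiss1, the driver of gonadotropin release, was 7.93, 7.97, 7.91 and 7.93 against 7.85, 7.74, 7.75 and 7.62. Both pairs of groups were apart, yet the other vehicle arrays of Qrfp (8.36 to 8.55) and Kiss1 (7.81 to 7.95) overlapped the celastrol values. Vip, of suprachiasmatic neurons, was 8.27, 8.11, 8.17 and 7.82 against 8.48, 8.45, 8.50 and 8.38, with a lowest value of 8.21 in the other vehicle arrays.

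Genes of leptin receptor signalling had a median of 0.000067, with 10 of 20 higher; 2 were non-overlapping and higher (6.44% of all genes) and 3 non-overlapping and lower (4.56%). Lepr differed by -0.06 (interval -0.25 to 0.12) and the feedback inhibitor Socs3 by 0.17 (interval -0.0032 to 0.34). The adaptor Sh2b1, which enhances leptin receptor signalling, was 9.21, 9.07, 9.04 and 9.13 against 9.04, 8.99, 9.02 and 8.90. The phosphatase gene Ptpn1, which restrains it, was 8.94, 9.04, 8.88 and 9.04 against 9.07, 9.09, 9.04 and 9.13. The other non-overlapping members were Stat5a (0.13), a transcription factor gene of cytokine signalling, and the phosphoinositide 3-kinase subunit genes Pik3r1 (-0.08) and Pik3ca (-0.07). The groups of Sh2b1 and Ptpn1 were barely apart, and neither had an adjusted p under 0.3 (limma; 0.313 and 0.484).

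Stress and housekeeping programmes stayed near the genome's median. Heat shock response genes, which celastrol is known to induce in cultured cells, had a median of -0.03 with 0 of 20 non-overlapping. Endoplasmic reticulum stress genes, 24 measured, had a median of 0.03. Herpud1 (0.12), Trib3 (0.16) and Sdf2l1 (0.17) were non-overlapping and higher and Eif2ak3 (-0.16) non-overlapping and lower, against 6.44% and 4.56% of all genes. Of the 24, 15 lie in the high band, where 2.02% of genes were non-overlapping and higher and 7.97% lower. NRF2 antioxidant genes (-0.0044), proteasome subunits (0.01), oxidative phosphorylation genes (0.0092) and cytosolic ribosomal protein genes (0.03) held 0, 1, 1 and 0 non-overlapping members with higher values (6.44% of all genes), and 1 proteasome subunit, Psmc6, was non-overlapping and lower (-0.08; 4.56% of all genes). Immediate early genes of neuronal activity, 20 measured, had a median of 0.02. Egr4 (0.22) and Nptx2 (0.12) were non-overlapping and higher (6.44% of all genes), and Npas4 was at -0.19. Circadian clock genes, 18 measured, had a median of -0.04, Rora (-0.15) and Rorb (-0.12) being non-overlapping and lower (4.56% of all genes). Of the 18, 14 lie in the high band, where that share was 7.97%.

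The choice of vehicle arrays set the sign of many of these medians. With all 12 vehicle arrays as control, 17 of the 43 medians had the other sign. The widest swing was in meningeal and perivascular fibroblast markers, from 0.05 to -0.22, followed by pituitary markers, from 0.01 to -0.14. The 1-day vehicle arrays were low in both against the other vehicle arrays (medians -0.39 and -0.22). The glucocorticoid, NF-kB and acute-phase medians stayed highest and the endothelial, pericyte, thalamus and oligodendrocyte medians among the lowest. Both controls contain the 1-day vehicle arrays, so the 2 sets of medians are not independent.

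**Figure D4:**
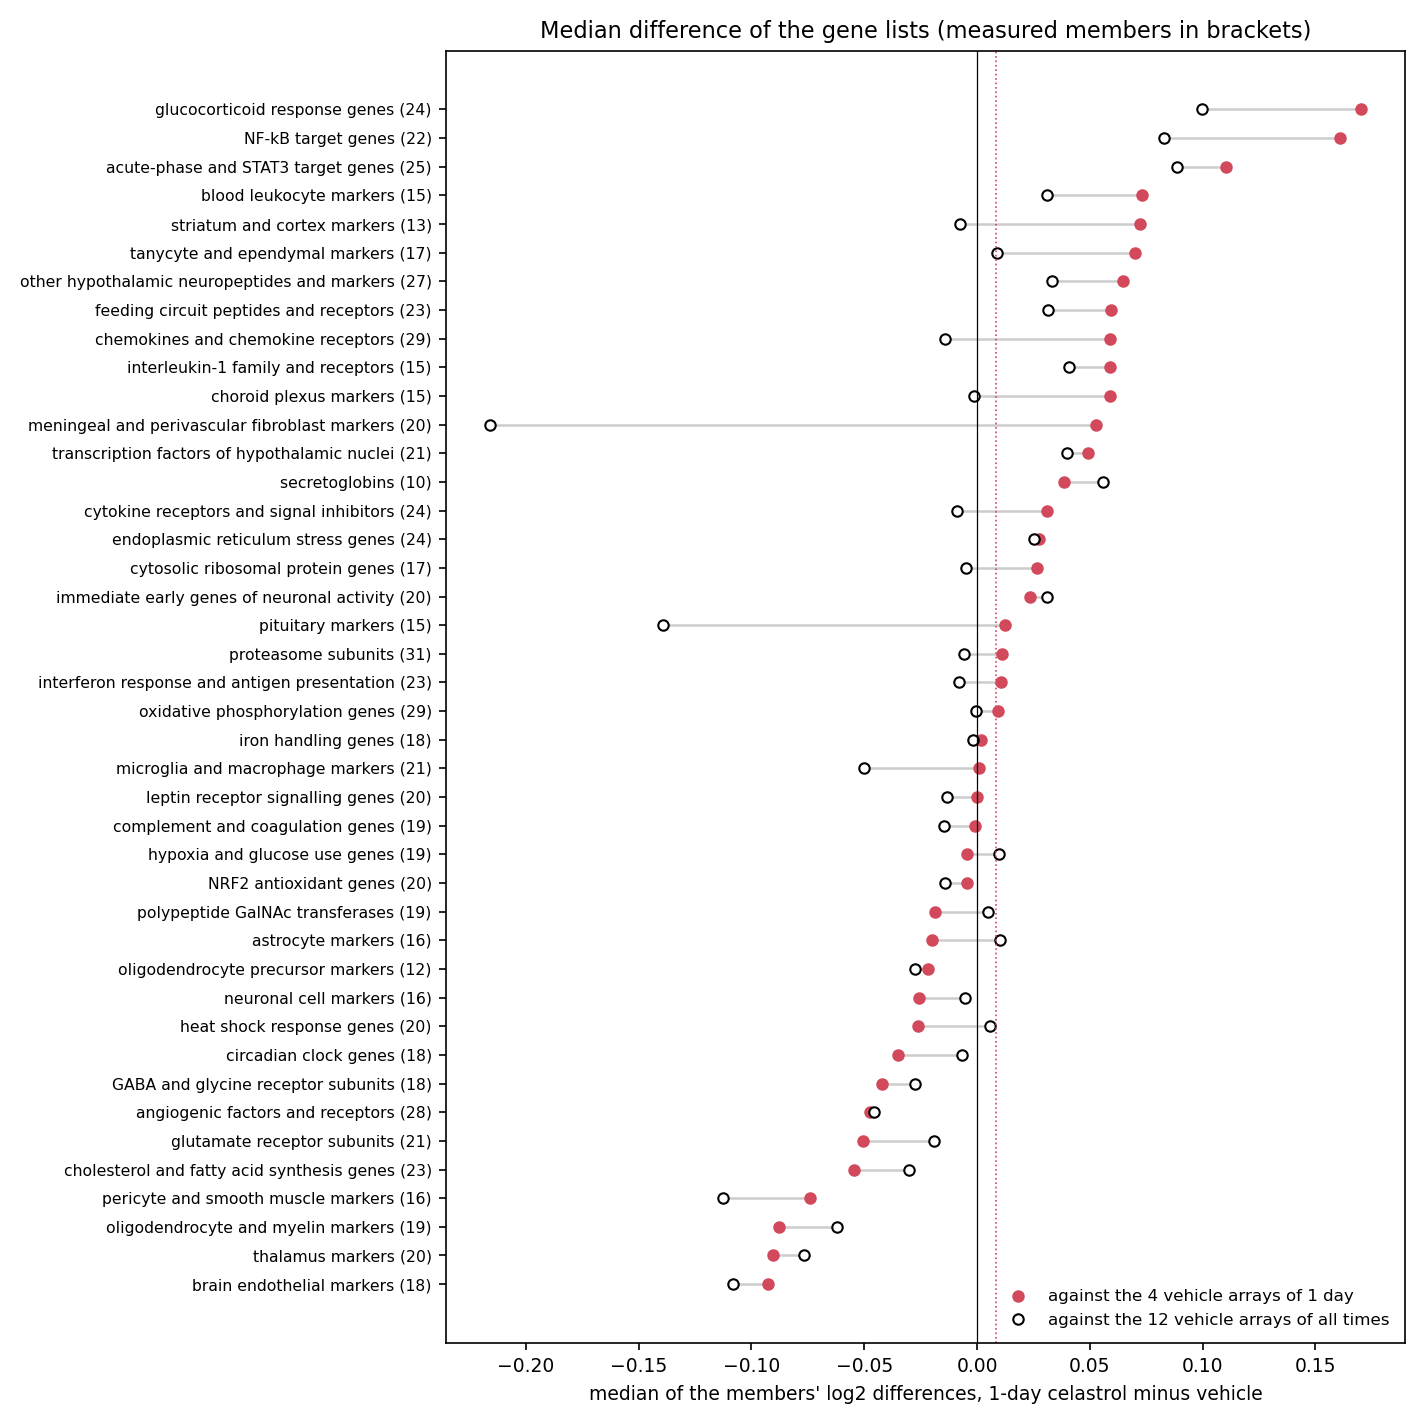
Median log2 difference of the members of 42 gene lists with 5 or more measured genes (the red blood cell list has 2), between 1-day celastrol and the 4 vehicle arrays of 1 day (filled) or all 12 vehicle arrays (open); the dotted line is the median of all genes, 0.0086. The upper 3 lists keep values of 0.08 or more on both bases, and the fibroblast and pituitary lists cross 0.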

How the data were processed

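RNA of 8 hypothalami, 4 per group, was compared at 1 day. Per the submitters' processing notes, the authors summarised each probe set with RMA, and the deposited values are on the log2 scale. For the RMA software, the set of arrays normalised at once and the genome build, nothing is stated in the sources used here. Values were used without further normalisation or filter.

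Of 23492 probe sets, 20228 named 1 gene in the array's annotation table, 1399 several and 1865 none; symbols were updated by gene identifier. For 811 genes with more than 1 probe set, that with the highest mean was used, which gave 18702 genes.

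Tests were made in R 4.3.3 with limma 3.58.1, using a model of 6 group means over all 23 arrays (17 residual and 5.424 prior degrees of freedom), moderated tests and Benjamini-Hochberg adjustment at 0.05 over all genes, checked on simulated data. The p-values set a difference against the spread between samples within groups, pooled over the 6 groups and moderated over genes. They do not use the spread of the 1-day groups alone. Contrasts were celastrol against vehicle at 1 day, that effect against the mean effect at 6 h and 4 days, and the 1-day vehicle group against the other vehicle groups. Non-overlap means that all 4 arrays of a group lie beyond all 4 of the other.

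The genes, the 43 lists (887 genes written, 799 measured) and the tests were chosen with earlier results of these data known. Genes named were those past 0.05, filled to 20 per direction by the smallest p, up to 4 members of each list by the smallest p, and Lepr, Npy, Pomc, Cartpt, Socs3 and Il1b; sensory receptors, predicted and non-coding genes were counted and not named. Further list members named, the genes beyond all 12 vehicle arrays, and the mucosa and dopamine neuron genes were chosen after their values were seen. Lists are described by counts and medians and were not tested as sets. Promoter sequences came from RefSeq for 14917 of the genes tested, taking the start listed first.

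Alternatives were all vehicle arrays as control, covariates (array SD, choroid plexus mean, pituitary mean), array weights, centring, quantile normalisation, probe set means, the 1-day arrays alone, a replicate block, a robust trend, leaving out the low band of 3 by mean level, and each 1-day array left out. Added after seeing the data were leaving out 4 vehicle arrays with Prl above 9 or replicate 3 of the 6-h vehicle group, and testing all probe sets.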

Additional observations from a re-analysis of the deposited data

Results flagged for a closer look

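Over the 194 named genes, 388 groups of 4 arrays were examined for a highest or lowest array far from the others (a gap above Dixon's 95% critical value), and 29 groups (7.47%) had such an array, where chance gives about 1 in 20.

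Celastrol replicate 2 was the array most often set apart. It was highest for Scgb1c1 (8.48, group median 6.34), Pomc (9.09, median 8.28), the collagen genes Col1a1 (9.37) and Col3a1 (8.02), the keratin gene Krt5 (7.12), the transcription factor gene Pax7 (8.04), Grid2ip (7.57) and Phldb2 (7.76), and lowest for the pericyte gene Rgs5 (9.19) and the peptide transporter gene Tap2 (8.34). Pomc and Pax7 are made in the pituitary, and the pituitary hormone gene Prl was 7.31 in this array against 5.88 to 6.16 in the other celastrol arrays. Celastrol replicate 4 was highest for Cartpt (10.54), the choroid plexus gene Ttr (7.88) and Tmem82 (7.72) and lowest for the cochaperone gene Dnaja1 (11.40), the endothelial gene Emcn (9.31) and Tfrc (9.89). For Tfrc and Tmem82 the celastrol arrays lay so close together that this gap is small. Celastrol replicate 3 was lowest for Lepr (7.64) and Tm6sf1 (9.47).

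Among the vehicle arrays, replicate 1 was highest for Col1a1 (8.89) and Socs1 (8.14) and lowest for hexokinase gene Hk2 (7.18) and the respiratory chain gene Ndufs1 (10.64). Replicate 2 was highest for Rora (10.43), Tcf7l2 (10.71), both also expressed in thalamus, and Tie1 (8.50). Replicate 3 was highest for Tac2 (11.24) and lowest for Chordc1 (10.12), and replicate 4 was highest for Cartpt (10.31) and lowest for the immunoproteasome gene Psmb9 (8.25).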

How the results depend on the processing

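The 3 higher and 0 lower calls became 1 and 0 with each array's SD or the choroid plexus mean as a covariate, after quantile normalisation and with all probe sets, 0 and 0 with a robust trend or without vehicle arrays of Prl above 9, and 290 and 116 with array weights. Without single 1-day arrays they ranged from 0 to 6 and from 0 to 1. Same-numbered arrays did not deviate together (correlations -0.01, -0.06, 0.02 and -0.02). Arrays of different numbers had correlations from -0.198 to 0.201, so these values cannot decide whether the numbers pair samples. With a replicate block 1 gene, Scgb3a1, was called higher. The higher and lower genes at an unadjusted p under 0.05 numbered 565 and 586 with all vehicle arrays. With the array SD they numbered 633 and 313, with weights 2359 and 1498, and after quantile normalisation 860 and 800. With the 1-day arrays alone they were 2329 and 1193, and without the low band 683 and 802. Without single arrays they were 1160 to 1659 and 470 to 1017 (both upper ends without replicate 3 of the 6-h vehicle group). Non-overlapping genes numbered 29 and 36 with all vehicle arrays, 569 higher without the low band, 1646 lower without the Prl arrays, and 1494 to 1987 and 1014 to 1646 without single arrays. The vehicle contrast called 473 genes, 0 with the array SD or choroid plexus covariate, 1992 with weights, 247 after centring, 81 after quantile normalisation, 55 with the pituitary covariate, 126 without the low band, 20 without the Prl arrays and 17 to 646 without single arrays. The 1-day effect against other times called 1 gene with weights or without replicate 3 of the 6-h vehicle group, and 0 to 1 without single arrays.

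Differences turned sign for 9 named genes with all vehicle arrays (Chordc1 0.0692, Hsf2 0.0042, Adm -0.0468, Rps18 -0.0057, Igfbp2 -0.10, Aldoc 0.00034, Tmem72 -0.0038, Npy -0.0168, Pomc -0.37), for 6 with the array SD (Psmb9 -0.0228, Scgb2b24 -0.0258, Jak2 0.0133, Grm8 0.00091, Alas2 0.0402, Pomc -0.25) and for Scgb1b2 after quantile normalisation (-0.0228). Alas2 also turned with the pituitary covariate (0.0136) and without the Prl arrays (0.0176), and ran from -0.0926 to 0.0176 without single arrays. The causes were not tested. The medians of the glucocorticoid, endothelial, pericyte, cholesterol and hypothalamic transcription factor lists kept their sign in every setting run. Depth is limited by 4 arrays a group.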

Other observations

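Genes of midbrain-type dopamine neurons, 16 looked up after their values were seen, went both ways: 9 had lower and 7 higher means with celastrol. Slc6a3, the dopamine transporter, was 10.13, 9.92, 9.39 and 10.21 with celastrol and 10.79, 10.45, 9.54 and 11.53 with vehicle. The nicotinic receptor subunit gene Chrna6 was 8.21, 8.18, 7.95 and 8.18 against 8.55, 8.59, 8.09 and 9.38, and Slc10a4, a vesicular protein of monoamine and cholinergic neurons, was 8.09, 8.02, 7.98 and 8.09 against 8.76, 8.50, 8.12 and 9.15. Th, tyrosine hydroxylase, reached 11.69 in vehicle replicate 4 where the other 7 arrays lay between 10.79 and 11.18. Vehicle replicate 4 was the highest of the 8 arrays for 10 of the 16 genes, and vehicle replicates 1 and 2 were also above every celastrol array for Slc6a3, Chrna6 and Slc10a4. Of the 16, the groups did not overlap for 3: Slc10a4 was lower (-0.59, limma, adjusted p = 0.249), and the transcription factor genes Pitx3 (0.20, adjusted p = 0.296) and Lmx1b (0.11, adjusted p = 0.432) were higher. Over all genes, 4.56% were non-overlapping and lower and 6.44% non-overlapping and higher.

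Epithelial genes stood out in vehicle replicate 1. The airway secretory gene Bpifa1 was 9.39 there and 6.16 to 6.49 in the other 7 arrays, and Bpifb1 was 8.08 against 6.62 to 6.92. Neither was raised in celastrol replicate 2, the array with high Scgb1c1 and Cyp2g1.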
